A study of Mus musculus with 26 samples.

Results

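Transcripts of 39 genes that mark T cells and natural killer (NK) cells were followed in mouse lung 56 days after the last of 4 weekly instillations of multiwalled carbon nanotubes. The genes were chosen by name, as the receptors, signalling proteins, transcription factors, granule proteins and homing receptors of these lymphocytes, with 1 lymphoid chemokine. The rule used no measured value, but the choice was made with earlier results of these data known. Of the 39, 38 were matched to a probe by RefSeq accession, and 36 were tested among 22950 features in all. Ccl21a, the lymphoid chemokine, was not matched. Ctla4, an inhibitory receptor of activated and regulatory T cells, was well above background in 0 control animals, 1 and 3 animals given the low and high dose of NM-401, and 1 and 0 given those of Mitsui, of 5 each, and Klrk1, the NK activating receptor NKG2D, in 0, 1, 1, 0 and 1. Neither passed the filter on dim probes, so neither has a fold change here.

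The animals were MutaMouse mice, a strain that carries a transgenic reporter for counting mutations, about 12 weeks old and labelled female. Each of the 5 groups held 5 animals: a control, NM-401 at 42.7 µg per mouse (low) or 128 µg per mouse (high), and Mitsui XNRi-7 at the same amounts. NM-401 and Mitsui XNRi-7 are both multiwalled carbon nanotubes, given in mouse serum into the trachea. The labels do not settle whether an amount is per instillation or in total. They disagree on the sex (the design text says male) and on the controls, which one label calls vehicle controls and another describes as gavaged with olive oil. RNA came from random sections of whole lung, so fewer cells of a type and less RNA per cell cannot be told apart in any value below. The epithelial genes Sftpc, Sftpb, Ager and Scgb1a1 and the endothelial gene Pecam1 were well above background on 26 of 26 arrays, and the endothelial gene Cdh5 on 25.

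Each value is a log2 ratio of the animal's RNA over a common reference RNA on the same array. The level of one gene's probe cannot be set against that of another, so only the same gene is compared between animals. In the lung channel, between 45.8% and 62.1% of an array's probes stood well above background. Genes with a limma p under 0.05 after Benjamini-Hochberg adjustment over the 22950 features were called. A p-value sets a difference of group means against the spread among these animals, and the main model held no term for slide. Errors after ± are standard errors of the model for changes and SD for group means, with n = 5 per group. Each exposure was compared with the same 5 controls, so the 4 sets of changes share them and are not independent. Where 4 values or counts stand together, they follow the order of the low and high dose of NM-401 and then of Mitsui.

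T cells recognise antigen through a receptor joined to the CD3 chains, with CD4 or CD8 as coreceptor, and signal through LCK, ZAP-70 and LAT. NK cells have no such receptor: they are steered by inhibitory and activating receptors and kill, as CD8 T cells do, with perforin and granzymes. Regulatory T cells, defined by the transcription factor FOXP3 and rich in the interleukin-2 receptor alpha chain (CD25), restrain other lymphocytes. In the lung these cells take part in defence and in the chronic inflammation that follows inhaled particles.

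The promoters of 4 genes that rose are shown first, with those of 2 lymphocyte killing genes, to show where the motif letters counted here lie. They are the 250 bases before the annotated start, from RefSeq on GRCm38.p6, 5′ to 3′ on the gene's strand. They lie at chr1:94052554-94052803 (minus strand) for Pdcd1, chrX:7579426-7579675 (plus strand) for the first of 2 starts of Foxp3, chr2:11642542-11642791 (plus strand) for Il2ra, chr15:9529877-9530126 (minus strand) for Il7r, chr13:113100982-113101231 (minus strand) for Gzma and chr7:4337465-4337714 (plus strand) for the first of 2 starts of Ncr1. Capitals mark the letters TGTGGT, the core of the RUNX motif, and GGAAA, the core of the NFAT motif, or their reverse complements.
Pdcd1: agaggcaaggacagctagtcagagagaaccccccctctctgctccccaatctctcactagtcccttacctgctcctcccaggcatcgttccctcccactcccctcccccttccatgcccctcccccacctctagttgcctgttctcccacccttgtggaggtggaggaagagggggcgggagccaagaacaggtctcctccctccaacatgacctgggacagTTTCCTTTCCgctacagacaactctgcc
Foxp3: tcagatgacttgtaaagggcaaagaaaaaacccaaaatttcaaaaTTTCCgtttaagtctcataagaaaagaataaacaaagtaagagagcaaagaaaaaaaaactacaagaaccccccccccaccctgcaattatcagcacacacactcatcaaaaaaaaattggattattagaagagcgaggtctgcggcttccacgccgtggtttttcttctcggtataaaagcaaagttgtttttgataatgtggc
Il2ra: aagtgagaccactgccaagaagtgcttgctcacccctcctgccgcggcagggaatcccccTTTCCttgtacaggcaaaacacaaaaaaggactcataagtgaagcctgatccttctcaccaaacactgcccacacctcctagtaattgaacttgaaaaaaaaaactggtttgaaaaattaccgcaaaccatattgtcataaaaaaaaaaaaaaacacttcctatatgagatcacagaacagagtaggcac
Il7r: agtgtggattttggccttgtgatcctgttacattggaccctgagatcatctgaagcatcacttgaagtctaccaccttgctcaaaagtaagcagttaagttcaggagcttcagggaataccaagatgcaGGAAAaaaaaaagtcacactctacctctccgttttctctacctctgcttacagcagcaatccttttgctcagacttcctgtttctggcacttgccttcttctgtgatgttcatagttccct
Gzma: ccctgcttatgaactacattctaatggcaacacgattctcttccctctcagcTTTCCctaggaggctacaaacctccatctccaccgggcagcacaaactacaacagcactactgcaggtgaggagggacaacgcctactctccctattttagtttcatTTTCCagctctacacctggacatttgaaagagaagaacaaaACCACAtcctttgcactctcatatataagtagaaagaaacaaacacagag
Ncr1: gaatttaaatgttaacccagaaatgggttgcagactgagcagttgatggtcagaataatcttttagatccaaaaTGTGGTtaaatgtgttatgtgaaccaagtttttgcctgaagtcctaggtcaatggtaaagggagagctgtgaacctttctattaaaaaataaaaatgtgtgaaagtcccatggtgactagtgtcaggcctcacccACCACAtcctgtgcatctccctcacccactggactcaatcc
In this window the promoters of Pdcd1, Foxp3, Il2ra and Il7r held GGAAA and no TGTGGT. The promoter of Gzma held both, and that of Ncr1 held TGTGGT at 2 places and no GGAAA. These letters do not set the genes that rose apart: the promoters of Gata3, which fell, and of Cd3d, Cd3e and Cd8a, which were not called, also held GGAAA and no TGTGGT. Of the 39 genes, 30 have an entry in the promoter table, with 35 starts. Cd4, Cd8b1, Cd2, Cd6, Cd28, Icos, Il2rb, Thy1 and Klrd1 were not matched there. On either strand, TGTGGT stood before 12 of the 35 starts (34.3%), against 14.0% of 32851 starts of all genes. It stood before 11 of the 30 genes: the granule genes Gzma, Gzmb, Prf1 and Nkg7, the NK receptor genes Klrk1, Klrb1c and Ncr1, the homing receptor genes Cxcr3 and Cxcr6, and Lck and Zap70. GGAAA stood before 62.9% of these starts and 55.6% of all. The letters CGGAAG (ETS family) stood before 0 of 35 starts and 13.6% of all, AGATAA, known from the family of Gata3, before 5.71% and 9.99%, and GGTGTGA (T-box family) before 5.71% and 3.33%. No matches of different motifs overlapped in the 35 windows. These are counts of letters and say nothing of which proteins bind.

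Against the control, 11 of the 36 genes were called in at least 1 exposure, and the checkpoint and regulatory genes Pdcd1 and Foxp3 rose in all 4. Both were well above background in only 3 of 5 controls and passed the filter through the exposed groups, where they are higher, so that they were tested at all depends on their rise. The other 34 tested genes were well above background in at least 4 controls. NM-401 low called 3 genes higher and 0 lower (8.33% of the 36), beside 16.9% of all features called, 8.95% higher. NM-401 high called 8 higher and 2 lower (27.8%), beside 34.8% of all features, 18.4% higher and 16.4% lower. Mitsui low called 2 higher and 2 lower (11.1%), beside 21.0%, 10.6% higher and 10.4% lower. Mitsui high called 4 higher and 0 lower (11.1%), beside 23.7%, 12.7% higher. The share called was below that of all features in each exposure. The median log2 change of the 36 genes was -0.05, 0.10, -0.08 and -0.15, where the median of all features lay between -0.005 and -0.001. Of the genes, 25 were called in no exposure. With median centring in place of loess, the calls left were Pdcd1, Foxp3, Il2ra, Il7r and Icos in NM-401 high, and 0 in the other exposures. The share of all called features that were higher was then 83.8% to 89.4% over the 4 exposures, against 50.4% to 53.5% with loess.

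**Figure D1:**
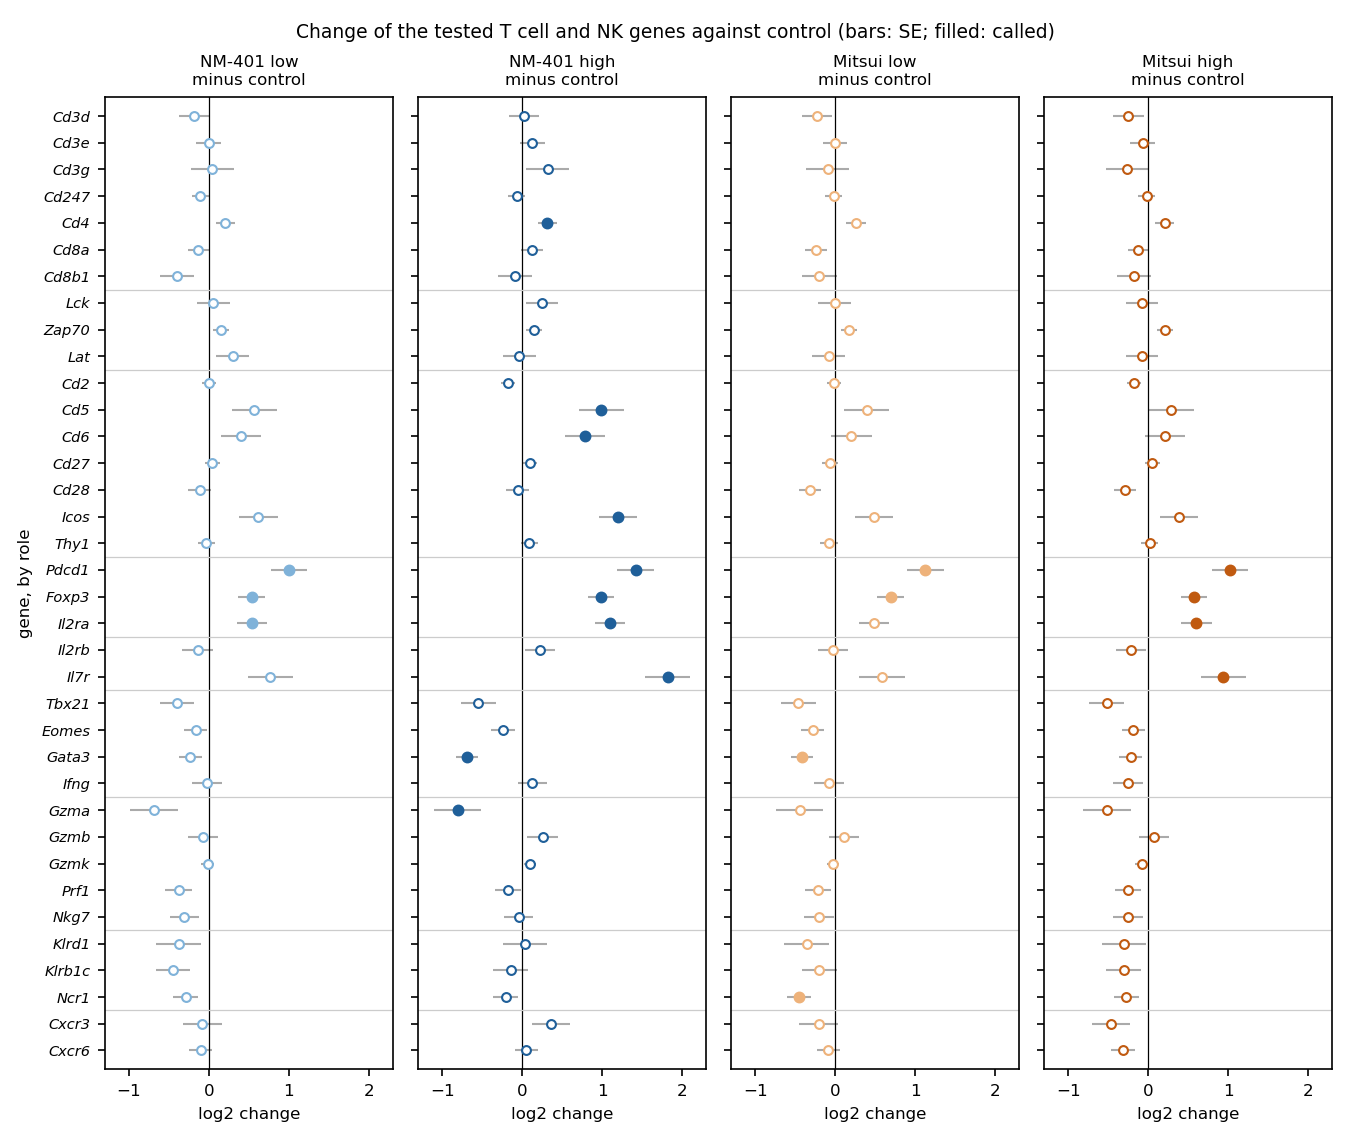
Log2 change of each of the 36 tested genes against control (x axis, with standard error bars), by role from T cell receptor genes at the top to homing receptors at the bottom, in the 4 exposures. Filled points are called: Pdcd1 and Foxp3 are filled in all 4 panels, and the largest change is Il7r in NM-401 high at 1.82.

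The genes that define a T cell gave 1 call. Of the 7 genes of the receptor complex and coreceptors (Cd3d, Cd3e, Cd3g, Cd247, Cd4, Cd8a and Cd8b1), Cd4 was called in NM-401 high and 0 were called in the other exposures. For Cd3e, a CD3 chain found on every T cell, the log2 ratios of control animals 1 to 5 were -0.45, -0.31, -1.05, -1.27 and -1.23. Those of NM-401 high were -0.84, -0.94, -0.55, -0.71 and -0.63. The controls thus spanned more than the exposed animals, with animals 1 and 2 above every NM-401 high animal and animals 3 to 5 below them. The remaining groups lay within the control range, NM-401 low from -1.09 to -0.715, Mitsui low from -1.06 to -0.68 and Mitsui high from -1.24 to -0.63. The fold change of Cd3e was 0.996 (95% interval 0.801 to 1.24), 1.09 (0.878 to 1.36), 1.0 (0.804 to 1.24) and 0.954 (0.767 to 1.19), none called.

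The coreceptors did not move alike. Cd8a, the alpha chain of the coreceptor of killer T cells, read 1.19, 0.89, 0.50, 0.62 and 0.84 in the controls and 0.56, 0.84, 1.13, 1.02 and 1.101 in NM-401 high, and the groups overlapped. Its change was -0.13, 0.12, -0.24 and -0.12, each ± 0.14, with adjusted p from 0.228 to 0.572. Cd4, the coreceptor of helper and regulatory T cells, read 0.51, 0.68, 0.34, 0.40 and 0.31 in the controls. It read 0.90, 0.45, 0.90, 0.63 and 0.93 in NM-401 high, where animal 2 lay inside the control range. The rise of 0.32 ± 0.12 (1.24-fold, adjusted p = 0.0456) was lost in 7 of 12 processing alternatives (adjusted p 0.0597 to 0.545), slide as a block among them, and without any one of controls 1, 3, 4 and 5 or NM-401 high animals 1, 3 and 5 (0.0571 to 0.115). A second, dimmer Cd4 probe changed by 0.04 ± 0.05 (adjusted p = 0.605). Cd8b1 was 0.40 ± 0.21 lower in NM-401 low (adjusted p = 0.218), and Cd3d, Cd3g and Cd247 differed from control by -0.26 to 0.32 over the 4 exposures, none called.

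Signalling proteins just under the receptor also stayed uncalled. For Lck, the kinase that starts the signal, changes ran from -0.08 to 0.25. Zap70, the kinase that binds the CD3 chains, was 0.15 to 0.21 higher in the 4 exposures, with adjusted p from 0.141 to 0.333. Lat, the adaptor that the kinases mark, ran from -0.08 to 0.30, and its NM-401 low mean holds 1 animal at -1.16 where the other 4 read -2.76 to -2.36. From the wider list of receptor signalling genes, 19 of 20 were tested and 1, 3, 1 and 1 were called higher and 1, 2, 2 and 1 lower. The share of all features called, in either direction, was 16.9%, 34.8%, 21.0% and 23.7%. Cd226, an activating receptor of T and NK cells, fell in all 4, by 0.51, 0.52, 0.52 and 0.53 ± 0.10. Fyb, an adaptor shared by T cells and myeloid cells, rose by 1.02 ± 0.21 in NM-401 high (adjusted p = 0.000514) and 0.61 ± 0.21 in Mitsui high (0.0367).

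Of the 3 checkpoint and regulatory genes tested, 3, 3, 2 and 3 rose, beside 8.95%, 18.4%, 10.6% and 12.7% of all features called higher. This count depends in part on the filter, which Pdcd1 and Foxp3 passed through the exposed groups and Ctla4 did not pass. Pdcd1 encodes PD-1, an inhibitory receptor that appears on T cells after activation and persists on exhausted ones. Its log2 ratio was -3.90, -3.04, -3.55, -4.27 and -4.06 in the controls, 3 of them well above background. It read -2.98, -2.75, -2.64, -3.12 and -2.32 in NM-401 low and -2.44, -2.91, -1.87, -2.35 and -2.15 in NM-401 high. All NM-401 high animals lay above all controls, and in NM-401 low only animal 4 lay below the highest control. The Mitsui low animals read -2.63, -2.56, -2.82, -2.42 and -2.73, all above the controls. The Mitsui high animals read -2.79, -3.55, -2.65, -2.50 and -2.20, of which animal 2 lay within the control range. Pdcd1 rose by 1.00 ± 0.23 in NM-401 low (2.0-fold, adjusted p = 0.00395) and by 1.42 ± 0.23 in NM-401 high (2.68-fold, 3.22e-05), and by 1.13 ± 0.23 (2.19-fold, 0.000962) and 1.02 ± 0.23 (2.03-fold, 0.00197) with low and high Mitsui. With 2 controls not well above background, the size of these folds is uncertain: with the log ratios that the scanner software computed, the changes were 2.21, 2.92, 2.39 and 2.29.

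Foxp3, the transcription factor of regulatory T cells, also rose in all 4 exposures. The controls read 0.01, 0.46, -0.08, 0.07 and -0.02, 3 of them well above background. NM-401 low animals read 0.50, 0.70, 1.07, 0.32 and 0.52, and NM-401 high animals 0.99, 0.57, 1.48, 0.88 and 1.46. Control animal 2 was the only control above 0.07, and even it lay below every NM-401 high animal. Mitsui low animals read 0.58, 0.97, 0.73, 0.88 and 0.75, all above the controls, and Mitsui high animals 0.67, 0.48, 0.29, 0.93 and 0.95, where animal 3 did not clear control animal 2, as animal 4 of NM-401 low did not. Foxp3 rose by 0.53 ± 0.17 in NM-401 low (1.45-fold, adjusted p = 0.027) and by 0.99 ± 0.17 in NM-401 high (1.98-fold, 5.04e-05), and by 0.70 ± 0.17 (1.62-fold, 0.00369) and 0.58 ± 0.17 (1.49-fold, 0.0125) with low and high Mitsui. The call in NM-401 low was lost without any one of controls 1, 3, 4 and 5 or NM-401 low animals 2 and 3 (adjusted p 0.05 to 0.0867). The size is uncertain here too, with 2 controls not well above background: the scanner software's ratios gave changes of 1.51, 2.54, 1.98 and 1.58.

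Il2ra encodes CD25, carried by regulatory T cells and by recently activated T cells. Its log2 ratio was 0.95, 0.99, 0.75, 1.12 and 1.18 in the controls, 1.23, 1.62, 2.22, 1.41 and 1.21 in NM-401 low and 1.82, 1.69, 2.62, 2.17 and 2.20 in NM-401 high. Every NM-401 animal at either dose lay above every control, and so did every Mitsui low animal, at 1.43, 1.25, 1.60, 1.63 and 1.501. Mitsui high animals read 1.77, 1.46, 0.99, 1.80 and 1.99, with animal 3 inside the control range. Il2ra rose by 1.102 ± 0.19 in NM-401 high (2.15-fold, adjusted p = 6.87e-05) and 0.60 ± 0.19 in Mitsui high (1.52-fold, 0.0217). In NM-401 low the rise was 0.54 ± 0.19 with an adjusted p of 0.0496, which 8 of the 10 leave-outs (all but NM-401 low animals 1 and 5) took to between 0.0545 and 0.161. It was also lost in 7 of 12 processing alternatives (0.0502 to 0.994). In Mitsui low it was 0.48 ± 0.19 and missed the threshold (0.0716), although it passed with slide as a block (0.0173). The Mitsui high call was lost without control 3 or Mitsui high animals 1, 4 or 5 (0.0539 to 0.0736), and in the scanner software's ratios (0.0593). The scanner software's ratios gave 1.80 in NM-401 high.

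**Figure D2:**
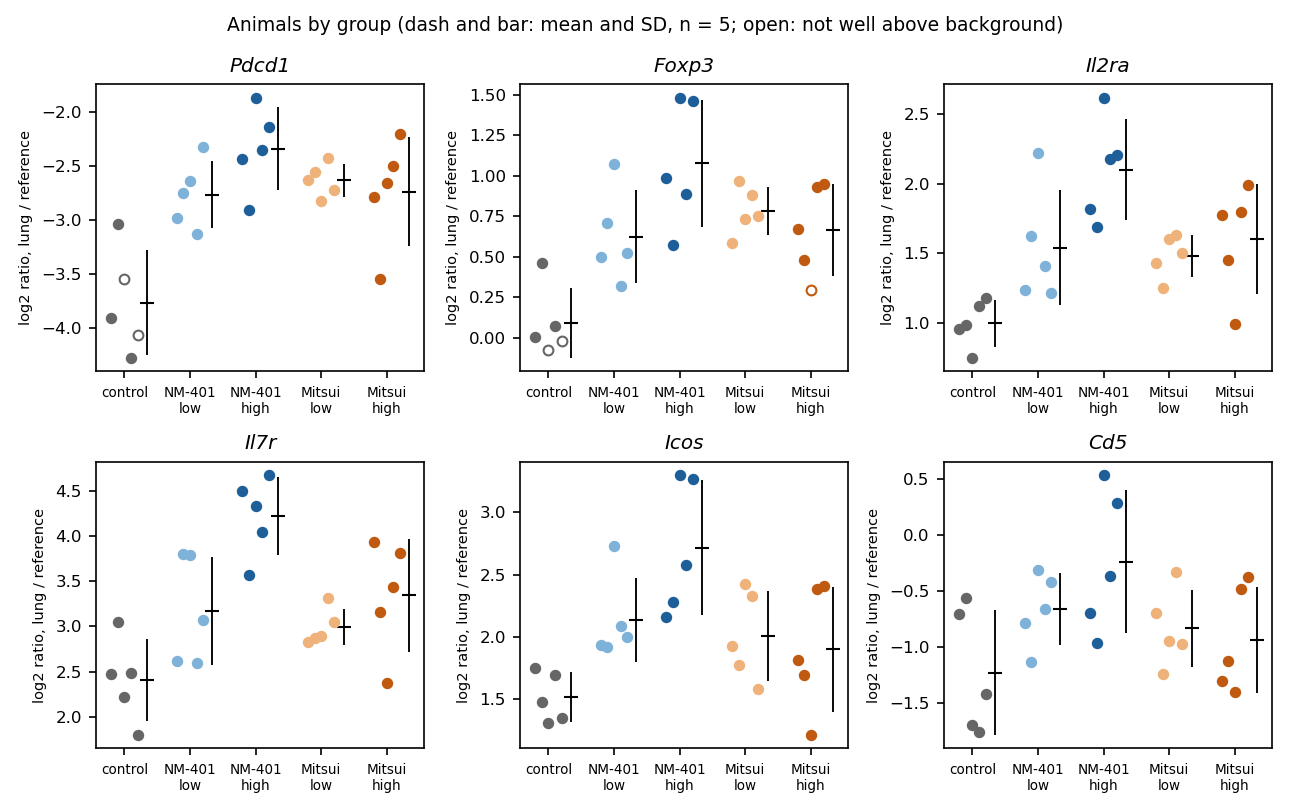
Log2 ratio of lung over reference RNA (y axis) for Pdcd1, Foxp3, Il2ra, Il7r, Icos and Cd5 in each animal of the 5 groups, with the mean and SD (n = 5) beside the points. Open points were not well above background, as in 2 controls each for Pdcd1 and Foxp3. NM-401 high has the highest group mean for all 6 genes.

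The receptors of cytokines split. Il7r, the receptor chain through which interleukin-7 keeps T cells and innate lymphoid cells alive, read 2.47, 3.05, 2.22, 2.49 and 1.79 in the controls and 4.50, 3.57, 4.34, 4.05 and 4.68 in NM-401 high. No NM-401 high animal came within the control range, and its rise of 1.82 ± 0.28 (3.54-fold, 95% interval 2.36 to 5.31, adjusted p = 2.15e-05) was the largest of the 36 genes in that comparison. The NM-401 low animals read 2.61, 3.80, 3.79, 2.60 and 3.08, the Mitsui low animals 2.83, 2.88, 2.90, 3.31 and 3.04, and the Mitsui high animals 3.94, 3.16, 2.37, 3.44 and 3.81. These 3 groups each overlapped the controls, whose highest animal stood at 3.05. Il7r rose by 0.94 ± 0.28 in Mitsui high (1.92-fold, adjusted p = 0.0174), a call lost without control 5 or Mitsui high animals 1 or 5 (0.0561 to 0.0593). The differences of 0.77 ± 0.28 in NM-401 low (0.065) and 0.59 ± 0.28 in Mitsui low (0.153) were not called. Il2rb, the interleukin-2 and interleukin-15 receptor chain of NK and memory CD8 T cells, changed by -0.22 to 0.22 and was not called.

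Of the 7 adhesion and costimulatory genes, 3 rose in NM-401 high and 0 were called in the other exposures. In NM-401 high, 18.4% of all features were called higher. Icos, the costimulatory receptor of activated, follicular helper and regulatory T cells, read 1.75, 1.48, 1.31, 1.70 and 1.35 in the controls. NM-401 low animals read 1.94, 1.92, 2.73, 2.09 and 2.00, and NM-401 high animals 2.16, 2.28, 3.30, 2.58 and 3.27. Both NM-401 groups stood wholly above the controls, while Mitsui low (1.92, 1.77, 2.43, 2.33 and 1.58) and Mitsui high (1.82, 1.69, 1.21, 2.38 and 2.40) overlapped them. The rise was 1.20 ± 0.24 in NM-401 high (2.3-fold, adjusted p = 0.000348), and a second, dimmer probe gave 0.76 ± 0.20 (0.00508). In NM-401 low it was 0.62 ± 0.24 and not called (0.0794), but called with slide as a block (0.038).

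Cd5 and Cd6, a pair of related receptors that temper T cell signalling, rose together. Cd5 read -0.70, -0.57, -1.70, -1.76 and -1.42 in the controls and -0.70, -0.96, 0.54, -0.36 and 0.29 in NM-401 high. Controls 1 and 2 overlapped NM-401 high animals 1 and 2, and the other 3 controls lay below all NM-401 high animals. The other exposures stood between, at -1.13 to -0.31 with low NM-401, -1.24 to -0.33 with low Mitsui and -1.40 to -0.38 in Mitsui high. Cd5 was 0.99 ± 0.28 higher in NM-401 high (1.99-fold, adjusted p = 0.00817).

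Cd6 read -0.14, -0.07, -1.25, -1.13 and -0.96 in the controls and -0.52, -0.33, 0.74, -0.14 and 0.65 in NM-401 high, the same animals standing low in each group. It ran from -0.56 to 0.12 in NM-401 low, from -0.91 to -0.22 in Mitsui low and from -0.86 to -0.08 in Mitsui high. It was 0.79 ± 0.25 higher in NM-401 high (1.73-fold, 0.0174), a call lost without controls 3 or 4 or NM-401 high animals 3 or 5 (0.0538 to 0.0662). A second, dimmer Cd6 probe changed by 0.03 ± 0.08 (0.833), and the mean of both probes by 0.41 (0.0318). Thy1, a surface protein of T cells and some stromal cells, changed by -0.08 to 0.09, Cd27 by -0.06 to 0.10, Cd2 by -0.18 to -0.002 and Cd28 by -0.31 to -0.05, none called.

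Of the 3 lineage factors and Ifng, 1 fell. Gata3, the factor of type 2 helper cells and of group 2 innate lymphoid cells, read -0.63, -0.44, -0.71, -0.84 and -0.91 in the controls and -1.41, -1.26, -1.67, -1.24 and -1.40 in NM-401 high. All NM-401 high animals lay below all controls, and Gata3 fell by 0.69 ± 0.14 (1.62-fold, adjusted p = 4e-04). Mitsui low animals read -1.22, -1.17, -1.26, -0.82 and -1.13, of which only animal 4 was inside the control range. The Mitsui low fall of 0.41 ± 0.14 (1.33-fold, 0.0369) was lost without controls 1, 2 or 3 or Mitsui low animals 1, 2, 3 or 5 (0.0554 to 0.104), and without the filter (0.0527) or in the authors' values (0.0572). The NM-401 low group (-1.39 to -0.54) and the Mitsui high group (-1.25 to -0.47) overlapped the controls, with differences of -0.23 and -0.22. Tbx21, which encodes T-bet, the factor of type 1 helper cells and NK cells, was 0.40, 0.55, 0.46 and 0.52 lower, each ± 0.22, and was not called (adjusted p 0.231, 0.0543, 0.143 and 0.0886). Eomes, the related factor of NK and memory CD8 T cells, was 0.16 to 0.28 lower and not called. Ifng, the cytokine that these factors switch on, changed by -0.03, 0.13, -0.07 and -0.25, none called. It was dim, well above background in 4 of 5 controls and in 3, 4, 4 and 3 of the exposed animals, so a change could be missed.

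The 5 cytotoxic granule genes gave 1 call in the 4 exposures. Gzma, the granzyme of NK cells and killer T cells, read 5.65, 6.02, 5.35, 4.94 and 5.60 in the controls and 3.79, 4.46, 5.00, 5.18 and 5.11 in NM-401 high. Animals 1 and 2 of NM-401 high stood below all controls and the other 3 did not. Gzma was 0.80 ± 0.30 lower in NM-401 high (1.75-fold, adjusted p = 0.038), a call lost without controls 1, 2 or 5 or NM-401 high animals 1 or 2 (0.0663 to 0.134), and without the filter (0.0535) or in the scanner software's ratios (0.0586). Within the 3 slides that held both groups the difference ran from -1.56 to 0.21, with 2 of 3 below 0. The other exposures ran from 4.21 to 5.26 in NM-401 low, 4.61 to 5.55 in Mitsui low and 4.06 to 5.95 in Mitsui high, and were 0.69, 0.44 and 0.51 lower, not called. Gzmb, the main apoptosis-inducing granzyme, changed by -0.07 to 0.26, Gzmk by -0.08 to 0.10, Prf1 (perforin) by -0.38 to -0.18 and Nkg7, a granule membrane protein, by -0.31 to -0.04, none called.

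NK receptors showed 1 fall. Ncr1, the activating receptor NKp46 and the most specific NK marker here, read 0.96, 1.54, 1.09, 0.91 and 1.09 in the controls and 0.81, 0.64, 0.71, 0.48 and 0.70 in Mitsui low, and the 2 groups did not overlap. The fall of 0.45 ± 0.16 (1.37-fold, adjusted p = 0.0398) was lost without controls 2, 3 or 5 or Mitsui low animals 2, 3, 4 or 5 (0.0556 to 0.128). It was also lost in 4 of 12 processing alternatives (0.0548 to 0.587), among them the scanner software's ratios, which gave -1.17 (0.125). Within slides it ran from -1.06 to 0.02, with 3 of 4 below 0. In NM-401 low (0.79, 0.64, 1.02, 0.75 and 0.95), NM-401 high (0.48, 0.66, 1.09, 1.35 and 1.00) and Mitsui high (0.70, 1.26, 0.39, 1.1 and 0.78) it overlapped the controls and was 0.29, 0.20 and 0.27 lower, each ± 0.16 and not called.

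Klrb1c, the NK1.1 family receptor, read 1.31, 1.30, 1.49, 1.41 and 1.64 in the controls and 0.82, 0.54, 1.40, 1.36 and 0.77 in NM-401 low. It read 0.84, 0.99, 1.78, 1.49 and 1.34 in NM-401 high, 1.15, 1.58, 1.47, 1.33 and 0.65 in Mitsui low and 0.80, 1.49, 0.45, 1.56 and 1.32 in Mitsui high. Every exposed group had animals on both sides of the lowest control, and the differences of -0.45, -0.14, -0.20 and -0.31, each ± 0.22, were not called. These values rest on 1 probe, as a second Klrb1c probe was well above background in 0 animals. Klrd1 (CD94), which pairs with NKG2 receptors, changed by -0.38 to 0.04. The homing receptors Cxcr3 and Cxcr6, which draw T and NK cells to inflamed tissue, changed by -0.47 to 0.36 and by -0.32 to 0.05, none called. With slide as a block, Cxcr6 was called lower in Mitsui high (adjusted p = 0.0356).

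**Figure D3:**
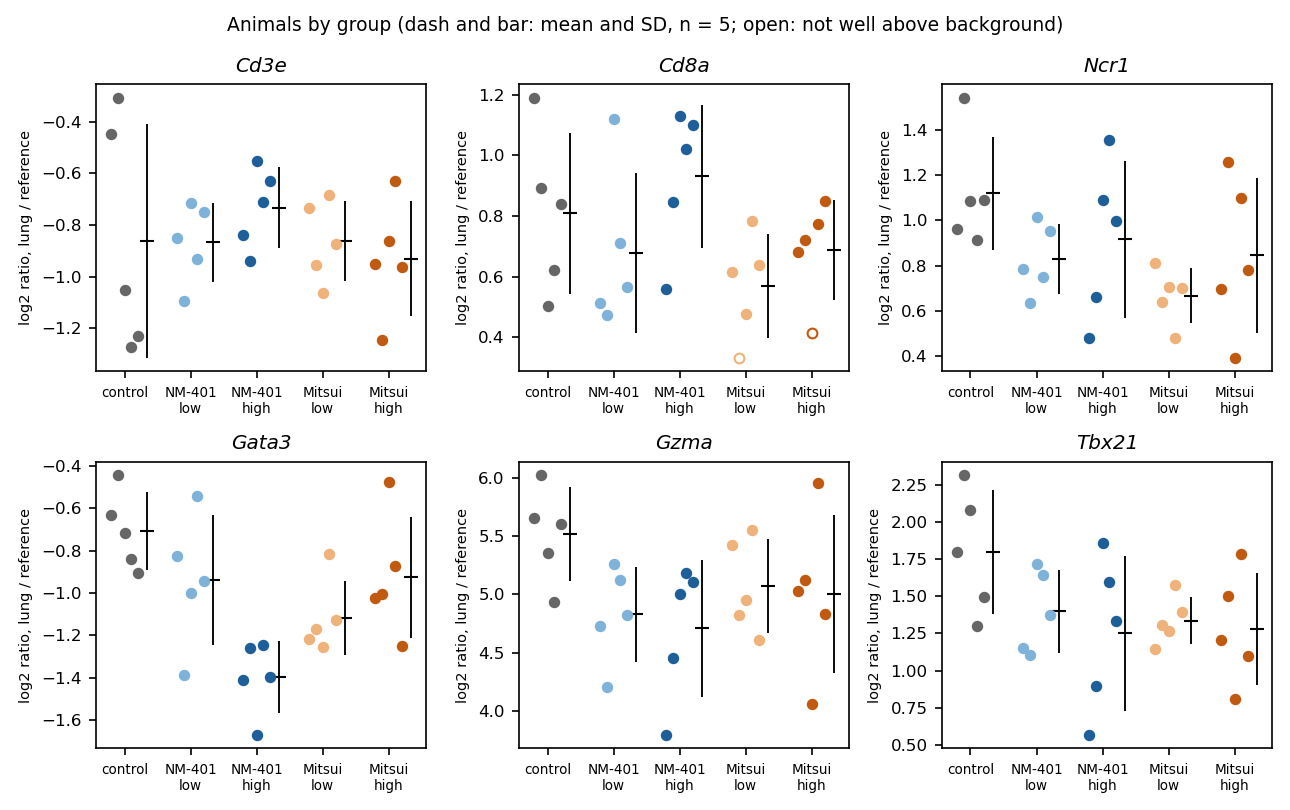
Log2 ratio of lung over reference RNA (y axis) for Cd3e, Cd8a, Ncr1, Gata3, Gzma and Tbx21 in each animal of the 5 groups, with the mean and SD (n = 5) beside the points; open points were not well above background. Control Cd3e spans -1.27 to -0.31, wider than any exposed group, and all NM-401 high animals lie below all controls for Gata3.

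Counted by animals, 2 genes lay wholly above the controls in NM-401 low, 5 above and 1 below in NM-401 high, 3 above and 1 below in Mitsui low, and 0 in Mitsui high. The share of all features whose groups did not overlap was 11.6%, 22.5%, 16.0% and 14.6%. Above the controls it was 6.53%, 12.0%, 8.45% and 8.22%, and below them 5.06%, 10.5%, 7.59% and 6.36%. With slide as a block, 3 of 3, 9 of 10, 4 of 4 and 4 of 4 of the calls held, Cd4 being the one lost. Within slides, every slide gave the sign of the call for all but Gzma in NM-401 high and Ncr1 in Mitsui low. The difference between Foxp3 and Cd3e inside each animal, which was looked at after the values were seen and was not tested, averaged 0.95 ± 0.35 (SD) in the controls and 1.49 ± 0.28, 1.81 ± 0.26, 1.65 ± 0.23 and 1.59 ± 0.28 in the exposures. Only its shift between groups carries meaning, since the 2 probes have different baselines. As Cd3e was called in no exposure, that shift restates the rise of Foxp3 and is no separate support for it.

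The dose step gave 1 call. From the low to the high dose of NM-401, Il7r rose by 1.05 ± 0.28 (2.08-fold, 95% interval 1.38 to 3.12, adjusted p = 0.0371), beside 3.84% of all features called, 2.69% higher and 1.15% lower. The call was lost without NM-401 low animals 1, 4 or 5 or NM-401 high animals 1, 3 or 5, each of which left 0 genes called, while leaving out NM-401 low animals 2 or 3 gave 2 and NM-401 high animal 2 gave 3. At an unadjusted p under 0.05, 5 of the 36 passed, beside 4200 of the 22950 features, among them Foxp3 (1.37-fold, interval 1.08 to 1.73, adjusted p = 0.127), Il2ra (1.47-fold, 1.12 to 1.93, 0.0983), Icos (1.5-fold, 1.06 to 2.11, 0.182) and Gata3 (0.728-fold, 0.596 to 0.889, 0.0654). From the low to the high dose of Mitsui, limma called 0 of the 36 genes, beside 0 of all features, with 0 of the 36 at an unadjusted p under 0.05 and 0 in every alternative run.

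The materials were also compared at each dose. At the low dose, limma called 0 of the 36 genes and 0 of all features, with 0 of the 36 at an unadjusted p under 0.05. At the high dose it called 0 of the 36, beside 0.793% of all features (0.462% higher and 0.331% lower), with 13 of the 36 and 3954 of the 22950 features at an unadjusted p under 0.05. For NM-401 high over Mitsui high, Cxcr3 stood at 1.78-fold (95% interval 1.26 to 2.51, adjusted p = 0.0858), Icos 1.76-fold (1.25 to 2.48, 0.0873), Il7r 1.84-fold (1.23 to 2.77, 0.113), and Gata3 stood at 0.721-fold (0.590 to 0.880, 0.0893). These intervals do not show the materials to be alike. Leaving out NM-401 high animal 2 or Mitsui high animal 5 gave 3 calls each. The difference between the dose steps of the 2 materials was called for 0 of the 36, beside 0.0305% of all features (0.0218% higher and 0.00871% lower), with 4 of the 36 and 2923 of the 22950 features at an unadjusted p under 0.05, Foxp3 among them (0.57 ± 0.23, adjusted p = 0.296).

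Animals of one group differed in many of these genes at once. In NM-401 high, animals 1 and 2 lay below animals 3, 4 and 5 in 27 of the 36 genes, Cd3d, Cd3g, Lck, Ifng, Gzmb and Klrd1 among them. The mean log2 ratio over the 36 genes was 0.57 and 0.55 in these animals and 1.21, 0.92 and 1.06 in the others. The interferon gamma induced genes, 14 tested, averaged 1.60 and 1.40 in animals 1 and 2 and 2.704, 2.48 and 2.33 in the others. In the controls, animals 1 and 2 lay above the other 3 in 17 genes, with means over the 36 of 0.80 and 0.95 against 0.50, 0.45 and 0.54. The spread between animals of a group was thus shared by many of the genes. Both pairs were the ones with the most such genes in their group. The same count was not made over all features, so whether this spread is particular to these genes was not tested.

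The genes that varied together were followed as deviations of the 25 animals from their group means, which share array and slide. Pearson's r was 0.95 for Cd5 with Cd6, 0.92 for Cd3d with Lck and for Cd3g with Cd6, and 0.90 for Cd3e with Thy1. Among killing and NK genes it was 0.85 for Gzma with Prf1, 0.87 for Gzmb with Klrd1 and 0.85 for Klrb1c with Klrd1. Ifng followed Eomes and Cxcr3, at 0.88 each. The most alike to Foxp3 were Il7r (0.77), Il2ra (0.74) and Cxcr3 (0.73), and to Icos Cxcr6 (0.86) and Il2ra (0.80). Pdcd1 lay nearest to Thy1 (0.70) and Cd3e (0.67). Cd2, a T and NK adhesion receptor, ran from -0.59 with Pdcd1 to 0.21 with Cd27, with -0.46 for Cd8b1 and -0.45 for Il2rb.

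**Figure D4:**
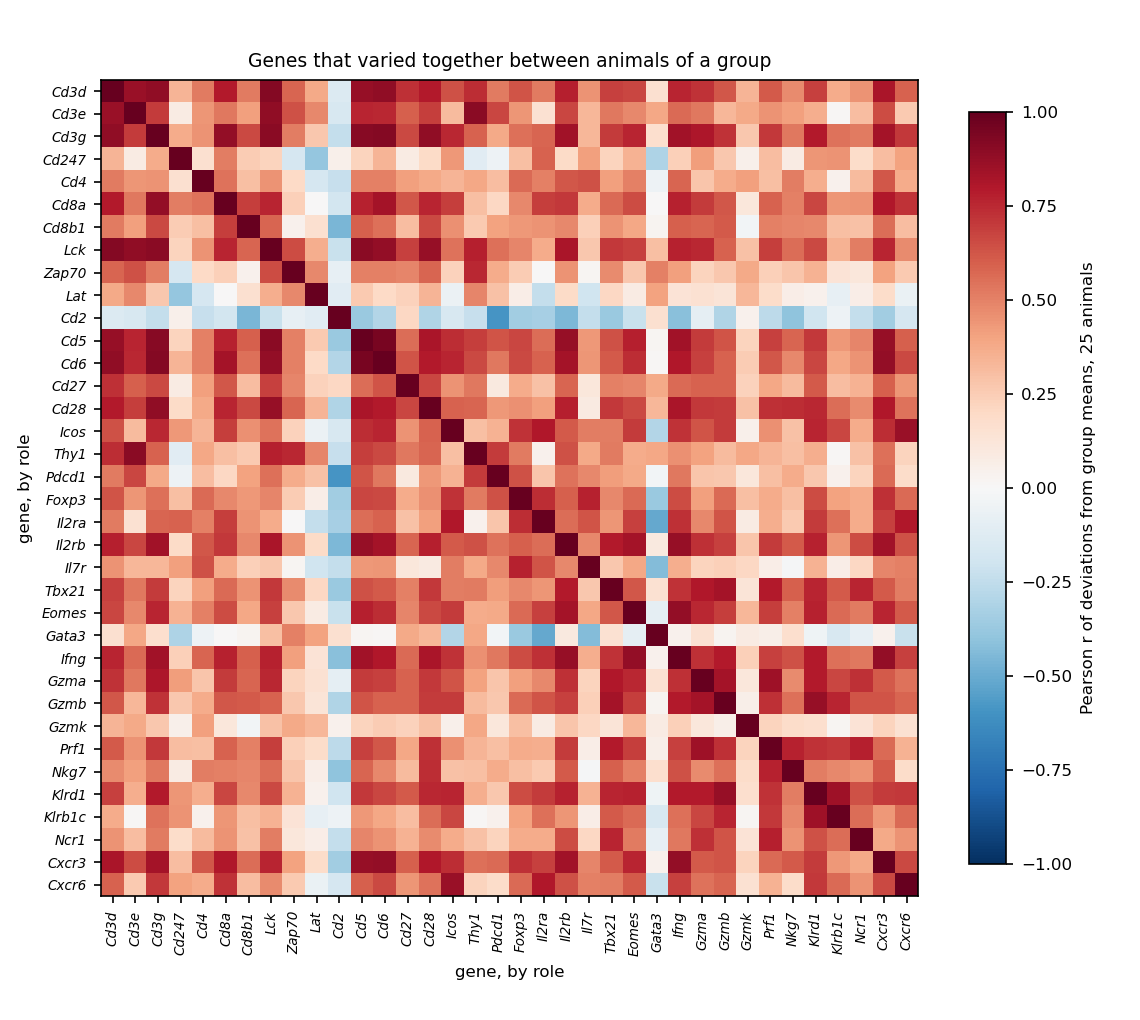
Pearson's r (colour, -1 to 1) between each pair of the 36 genes, by role on both axes, over deviations of 25 animals from their group means. Most pairs are positive, with 0.95 for Cd5 and Cd6, while Cd2 runs from -0.59 to 0.21 and Gata3 reaches no more than 0.50.

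Genes of neighbouring pathways are given by list, and the lists were chosen with earlier results of these data known. Of 14 further activation, exhaustion and costimulatory genes, 10 were tested, and 5, 6, 5 and 6 rose with 0 lower. Their median change was 0.56, 0.70, 0.35 and 0.69. Of all features, 8.95%, 18.4%, 10.6% and 12.7% were called higher. Tnfrsf4 (OX40), a costimulatory receptor of activated and regulatory T cells, rose by 1.15, 1.65, 0.90 and 1.15, each ± 0.25. Tnfrsf18 (GITR), also rich on regulatory T cells, rose by 0.81 ± 0.18 in NM-401 low and 0.72 ± 0.18 in Mitsui high. Havcr2 (TIM-3), a checkpoint receptor found on T cells and on macrophages, rose by 1.17 ± 0.17 in NM-401 high, 0.75 in Mitsui low and 0.80 in Mitsui high.

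All 10 naive and memory T cell genes listed were tested, and 5, 5, 5 and 4 of them fell with 0 higher, beside 1836, 3754, 2384 and 2532 of all 22950 features called lower, with median changes of -0.32, -0.31, -0.49 and -0.28. Klf2 and S1pr1, which keep naive T cells circulating and are also strongly expressed by endothelium, fell in all 4 exposures. Klf2 was lower by 0.57, 1.23, 0.98 and 0.58, each ± 0.16, and S1pr1 by 0.81, 1.26, 0.91 and 0.72, each ± 0.17. Lef1, a transcription factor of naive T cells, fell by 0.53 and 0.72 with low and high NM-401 and 0.71 with low Mitsui, each ± 0.12. Tcf7, its partner, fell by 0.59 ± 0.11 in Mitsui high. Beside them, 2, 5, 2 and 3 of 12 lung epithelium and endothelium markers fell, with the endothelial gene Tek down by 0.54, 0.84, 0.73 and 0.59. In the same list 0, 0, 1 and 1 rose, the ciliated cell factor Foxj1, by 0.58 ± 0.16 and 0.56 ± 0.16 in the Mitsui groups. The mean log2 ratio of those 12 ranged from 5.11 to 5.45 in controls and from 4.88 to 5.15 in NM-401 high. Their part in the fall was not tested.

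Of 19 ligands of the receptors listed, 15 were tested, and 6, 9, 5 and 6 rose while 1, 2, 1 and 1 fell, with median changes of 0.33, 0.54, 0.24 and 0.26. Among all 22950 features, 8.95%, 18.4%, 10.6% and 12.7% were called higher, and 1836, 3754, 2384 and 2532 features were called lower. Cxcl10, a ligand of CXCR3, rose by 2.40, 3.44, 1.91 and 1.99, each ± 0.60, and Cxcl9, another, by 2.05 ± 0.41 in NM-401 high. Cd86, the ligand of CD28 and CTLA-4 on antigen-presenting cells, rose by 0.95, 1.44, 0.90 and 0.99, each ± 0.18. Raet1e, a ligand of NKG2D, rose by 0.70 ± 0.09 in Mitsui low and 0.67 in Mitsui high, and H60c, another, fell by 0.61 ± 0.14 in NM-401 low. Raet1e was also called higher in NM-401 high than in NM-401 low, by 0.51 ± 0.09 (limma adjusted p = 0.00505). The receptors themselves, Cxcr3 and Cd28, were not called, and Klrk1 and Ctla4 were not tested.

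Of 16 interferon gamma induced genes, 14 were tested, and 4, 10, 1 and 2 rose with 0 lower, beside 8.95%, 18.4%, 10.6% and 12.7% of all features called higher, with median changes of 0.60, 0.88, 0.40 and 0.26. Iigp1, an interferon-induced GTPase, rose by 1.53 ± 0.37 in NM-401 high, and Tap1, a peptide transporter for antigen presentation, by 1.26 ± 0.29. Cd74, the invariant chain of MHC class II, rose by 0.73 in NM-401 low, 0.76 in Mitsui low and 0.80 in Mitsui high, each ± 0.13. Cd74 is not named for NM-401 high because other genes of the list changed more there. Ifng itself was not called, as given above, but its signal was near background, which limits what that result can show.

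Effector and innate lymphoid genes were called in both directions. Of 21 listed, 12 were tested, since Il4, Il5, Il10, Il13, Il17a, Il17f, Il17rb, Il21 and Il22 did not pass the filter. Of the 12, 2, 2, 2 and 2 rose and 1, 1, 1 and 2 fell, beside 16.9%, 34.8%, 21.0% and 23.7% of all features called. Areg, an epidermal growth factor ligand made by regulatory T cells, group 2 innate lymphoid cells and epithelium, rose by 1.16, 1.20, 1.00 and 0.92, each ± 0.21. Il1rl1, the interleukin-33 receptor ST2 of the same cells, of mast cells and of regulatory T cells, rose by 0.55, 0.91, 0.71 and 0.63, each ± 0.14. Rora, a factor of innate lymphoid cells that other lung cells also express, fell by 0.57, 0.67, 0.59 and 0.48, each ± 0.09. Among 18 tested of 21 further cytotoxic and NK genes, 1, 3, 2 and 1 rose and 0, 1, 0 and 1 fell. The share of all features called was again 16.9%, 34.8%, 21.0% and 23.7%. Klrg1, an inhibitory receptor of mature NK, effector and regulatory T cells, rose by 0.85, 1.27, 1.02 and 0.97, each ± 0.21.

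Genes of other leukocytes were also called in part. Over all features, 8.95%, 18.4%, 10.6% and 12.7% were called higher in the 4 exposures. Called lower were 1836, 3754, 2384 and 2532 of the 22950 features. Whether any list below was called more often than all features was not tested. Pan-leukocyte genes rose in 4, 7, 4 and 5 of 10, and their mean log2 ratio ranged from -0.30 to 0.54 in controls, and in the exposures from 0.46 to 0.86, 0.58 to 1.03, 0.34 to 0.64 and 0.48 to 0.85. Macrophage and monocyte markers rose in 6, 7, 5 and 4 of 13 tested and fell in 0, 1, 1 and 1, with means of 1.88 to 2.10 in controls and 2.44 to 3.08 over the exposed animals. Dendritic cell markers rose in 4, 5, 4 and 4 of 10 tested, among them Itgax, by 1.21 to 1.55, and 1 fell in Mitsui low. B cell and plasma cell markers rose in 2, 5, 2 and 3 of 18, with Fcrla lower in Mitsui low by 0.63 ± 0.17. Neutrophil markers rose in 0, 3, 1 and 1 of 9 and fell in 0. Of 5 mast cell and basophil markers tested 0 rose, and Kit, the stem cell factor receptor, fell by 0.54 ± 0.15 in NM-401 high and 0.50 ± 0.15 in Mitsui low. Lymph node and lymphatic stroma genes rose in 1, 2, 1 and 1 of 9 tested and fell in 1 each, Lyve1, the hyaluronan receptor of lymphatic endothelium, by 0.80, 1.31, 0.96 and 1.11, each ± 0.26. Of 9 thymus genes 3 were tested, with 0 rising and Cd1d1 lower by 0.46 ± 0.15 and 0.45 ± 0.15 in the Mitsui groups, and Rag1, Rag2 and Ptcra did not pass the filter. What these cells contributed to the rises of Foxp3, Pdcd1, Il2ra, Il7r and Icos was not tested.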

How the data were processed

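Lung RNA of 25 animals was measured on 26 2-colour Agilent arrays on 4 slides, with the lung in Cy5 and a reference RNA in Cy3. The animal on 2 arrays (Mitsui low 5) was averaged. The authors deposited the scanner output, whose median spot and background signals are intensity values with no background taken off, per the file headers. Beside them are log10 ratios from Agilent Feature Extraction 11.0.1.1 and, as values of another kind, flags for outlier and well above background spots, per the file headers. The authors also deposited log2 ratios whose normalisation is not given in the sources used here.

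With limma 3.58.1 (R 4.3.3), median signals were corrected by normexp (offset 50) and normalised by loess, with outlier spots (0.461%) removed. A probe had to be well above background in Cy5 in 4 or more animals of some group, which 30466 of 55681 were. The brightest such probe stood for its gene, giving 22950 features. Symbols came from RefSeq accessions. The model held the 5 group means, with variances moderated by eBayes (residual degrees of freedom 20, prior 3.76). Depth does not apply to arrays, and the number of animals limits the precision. The test was also run on simulated data with independent noise. That run held no slide effect and no correlation between genes, so it cannot speak to either.

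The members and lists were chosen with earlier results of these data known. All 39 genes are accounted for. Values per animal are given for genes called against control and for Cd3e, Cd4, Cd8a, Foxp3, Ncr1 and Klrb1c, and up to 3 called genes per list and comparison by size of change could be named. A slide effect was called in 6392 features, 2 of them among the 36 genes. Alternatives covered background correction, normalisation, filter, probe choice, slide and replicate blocks, moderation, the repeated array, the scanner software's and the authors' values, and each animal left out.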

Additional observations from a re-analysis of the deposited data

Results flagged for a closer look

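Among 70 sets of 5 animals (14 genes with values per animal in 5 groups), 3 held an animal far from the others by Dixon's ratio, the gap to the nearest animal over the range of the group, with a critical value of 0.71. Chance alone flags about 1 in 20 sets. For Icos in NM-401 low the ratio was 0.786, with animal 3 at 2.73 and the next at 2.09. For Foxp3 in the control it was 0.726, with animal 2 at 0.46 and the next at 0.07. For Ncr1 in the control it was 0.72, with animal 2 at 1.54 and the next at 1.09.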

How the results depend on the processing

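No called result changed direction under an alternative. Cd3e in Mitsui low, not called, ran from -0.22 to 0.02. The counts of called genes were 3, 10, 4 and 4 against control, for low and high NM-401 and then Mitsui. Median centring in place of loess gave 0, 5, 0 and 0, and moved the median of all features to -0.11, 0.17, -0.14 and -0.13. It called 62, 1064, 74 and 121 features in all, of which 83.9%, 89.4%, 83.8% and 86.8% were higher, where loess gave 52.8%, 52.9%, 50.4% and 53.5%. The cause was not tested. Without background correction NM-401 low gave 5, and without the filter Mitsui low gave 2. For the NM-401 dose step, where 1 gene was called, 0 were called without background correction, with median centring, without the filter, with the replicate block, and in the scanner software's and the authors' values. With the replicate block the counts were 2, 9, 3 and 4. Replicate numbers did not pair the animals: deviations of same-numbered animals correlated from -0.382 to 0.412, 26 of 50 below 0. Leaving out 1 animal gave 1 to 4 genes in NM-401 low, 8 to 11 in NM-401 high, 2 to 4 in Mitsui low, 2 to 5 in Mitsui high, 0 to 3 in the NM-401 dose step and 0 to 3 between the materials at the high dose. Between the low doses, for the Mitsui dose step and for the difference of dose steps it gave 0 to 0. Single removals leaving 1 gene in NM-401 low were controls 1, 3 and 5 and NM-401 low animals 2 and 3. Those leaving 2 in Mitsui low were controls 2 and 3 and Mitsui low animals 2, 3 and 5, and in Mitsui high they were Mitsui high animals 1 and 5. Genes near background, as Pdcd1 and Foxp3 were in 2 controls each, are limited by signal.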
